A study of Mus musculus with 2 samples.

Results

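The genes described here are 10 genes of the liver growth hormone pathway and its opposing repressor. They are the receptor genes Ghr and Prlr, the kinase gene Jak2, the transcription factor genes Stat5a and Stat5b, the target genes Socs2, Cish, Igf1 and Igfals, and Bcl6. They were taken by name from the probe sets that the platform annotation pairs with exactly 1 gene symbol. 9 of the 10 genes had such a probe set, 11 probe sets in all, among 22180 genes measured in the same way, and Prlr was not analysed here. The genes were chosen by role with the Iah1-KO against Iah1-WT differences of these arrays, those of Bcl6 and Socs2 among them, in view, so every value below describes the arrays, and none is a test.

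Liver RNA came from male mice of 2 genotypes, Iah1-WT and Iah1-KO, the latter lacking Iah1 in the whole body. Its product resembles an esterase of yeast. Both groups ate standard chow up to 6 weeks of age and high-fat pellets for the next 12 weeks, lived in single cages and had their food withdrawn 4 hours before they were killed, so no chow-fed or female group stands beside them. RNA of 3 mice was combined for each genotype and hybridised to 1 Affymetrix array, which leaves no spread between animals, no test and no p-value. All levels are RMA log2 signals, that is, background-corrected and quantile-normalised probe brightness, and all differences are Iah1-KO minus Iah1-WT on that scale.

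Growth hormone binds its receptor on hepatocytes, the receptor-bound kinase JAK2 phosphorylates STAT5, and STAT5 moves to the nucleus and switches on genes for circulating growth factors and for inhibitors of the same receptor. In rodents the pituitary releases the hormone in pulses in males and more evenly in females, and this pattern sets much of the difference between male and female liver. BCL6 is a zinc finger repressor that recognises DNA sites much like those of STAT5, is more abundant in male than in female liver, and is itself repressed by growth hormone.

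Bcl6 was higher in the Iah1-KO array, Socs2, Igf1, Stat5b, Igfals, Jak2 and Stat5a were lower by between 0.10 and 0.88 on the log2 scale, Ghr was nearly equal in the arrays, and the 2 probe sets of Cish went opposite ways. Bcl6 differed by 0.88 (1.83-fold higher) and Socs2, by the mean of its 2 probe sets, by -0.88 (1.84-fold lower). Igf1, Stat5b and Igfals were 1.23-fold, 1.21-fold and 1.18-fold lower. Jak2 and Stat5a differed by -0.15 and -0.10.

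**Figure D1:**
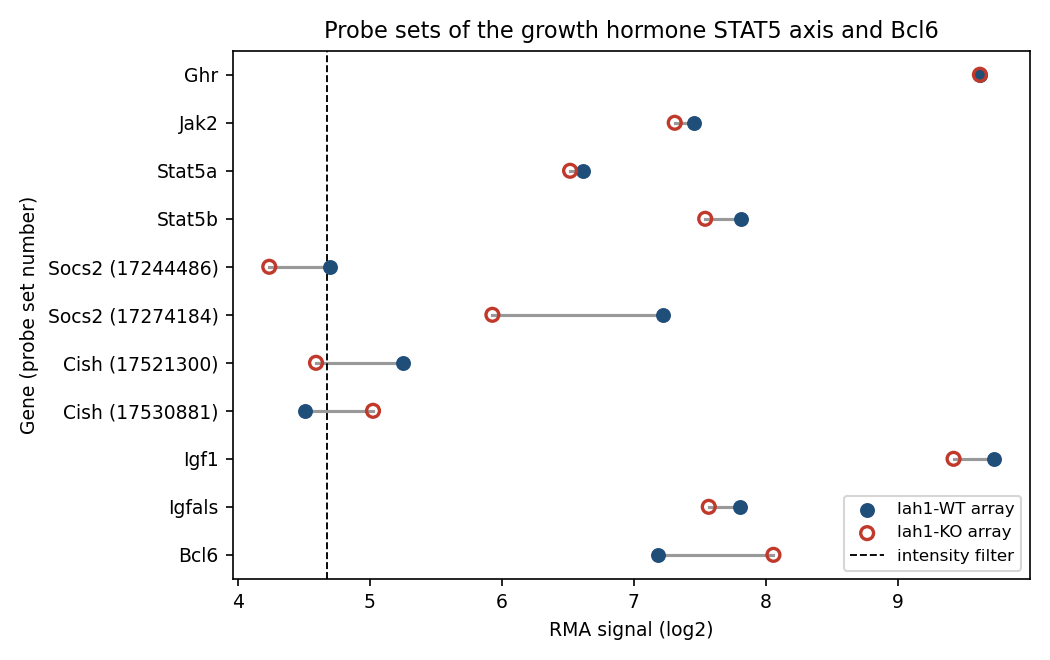
RMA signal (log2, horizontal axis) of each of the 11 probe sets of the 9 measured genes, with a filled point for the Iah1-WT array, an open point for the Iah1-KO array and a dashed line at the intensity filter of 4.68. The Bcl6 points lie at 7.18 in Iah1-WT and 8.06 in Iah1-KO, both Socs2 probe sets are lower in Iah1-KO, and the 2 Cish probe sets run in opposite directions.

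A gene was compared if its brighter array reached 4.68, which is the median of that quantity over all genes. All 9 measured genes did, as did 11090 genes in all. At a size of 1.5-fold (0.58 on the log2 scale) 1 of the 9 genes was higher, Bcl6, and 1 was lower, Socs2. The Socs2 call rests on 1 of its 2 probe sets, one numbered among genes of another chromosome; with the other alone the difference was -0.46 and the call was lost, and a filter at the 75th percentile, 6.52, dropped Socs2. Over all genes above the filter 1.47% were higher and 2.45% were lower at that size. The median difference of the 9 genes was -0.15, against -0.02 over all genes above the filter, and 8 of 9 lay below 0, against 55.7% of all genes. The 8 include Cish, whose probe sets have opposite signs, and Ghr, which ranged from -0.01 to 0.02 over the alternative settings. The arrays hold 1 kind of error, the scatter among probe sets of a gene. It had a standard deviation of 0.27 for a single probe set's difference, pooled over 604 genes above the filter whatever their brightness, and was not computed for bright genes alone. It covers neither animals, labelling nor hybridisation. The targeted transcript, Iah1, was at 8.59 in Iah1-WT and 3.90 in Iah1-KO, a difference of -4.69. The Iah1-KO value lay below the filter, so against the filter Iah1 was at least 15.1-fold lower.

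The receptor and kinase genes came first in the pathway and differed little. Ghr, the growth hormone receptor, was at 9.63 in Iah1-WT and 9.62 in Iah1-KO, a difference of -0.00 (-0.0029). Jak2, the kinase that the receptor activates, was at 7.46 in Iah1-WT and 7.31 in Iah1-KO, a difference of -0.15. Both differences are smaller than the disagreement between probe sets of 1 gene.

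The STAT5 genes are neighbours that arose by duplication, and STAT5B is the more abundant protein in liver. Stat5b was at 7.81 in Iah1-WT and 7.54 in Iah1-KO, a difference of -0.27, about as large as the probe-set disagreement. Stat5a was at 6.62 in Iah1-WT and 6.52 in Iah1-KO, a difference of -0.10. Their coding sequences are similar, and whether probes of one also bind the other was not tested.

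Igf1 encodes insulin-like growth factor 1, the main circulating mediator of growth hormone, and Igfals the acid-labile subunit that holds it in a long-lived serum complex. Igf1 was at 9.73 in Iah1-WT and 9.42 in Iah1-KO, a difference of -0.30. Igfals was at 7.81 in Iah1-WT and 7.57 in Iah1-KO, a difference of -0.24. Bright genes differed less between the arrays than dim ones, with a standard deviation of 0.16 in the brightest of 4 equal groups of genes and 0.36 in the dimmest. Igf1 lies in the brightest group, and among the 579 genes at least as bright as it, 9 had a lower difference. For Igfals 169 of 2651 such genes did. Both genes were chosen with the differences of these arrays in view, so the ranks only describe them. Their differences are about as large as the probe-set disagreement of 0.27.

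Socs2 and Cish encode SH2-domain proteins that STAT5 induces and that dampen the receptor's signal. For both, the 2 probe sets did not give the same value. Probe set 17274184 of Socs2 was at 7.22 in Iah1-WT and 5.93 in Iah1-KO, a difference of -1.29 or 2.45-fold. Probe set 17244486 of Socs2 was at 4.70 in Iah1-WT and 4.24 in Iah1-KO, a difference of -0.46. Both were lower in Iah1-KO, but the second only just passed the filter in Iah1-WT and lay below it in Iah1-KO, so against the filter it was at least 1.02-fold lower, a bound too close to 1 to show a difference by itself.

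Cish had one probe set lower and one higher in Iah1-KO. Probe set 17521300 was at 5.25 in Iah1-WT and 4.59 in Iah1-KO, a difference of -0.66 (at least 1.49-fold lower against the filter). Probe set 17530881 was at 4.51 in Iah1-WT and 5.03 in Iah1-KO, a difference of 0.52 (at least 1.27-fold higher). Their mean, 4.88 in Iah1-WT and 4.81 in Iah1-KO, differed by -0.07 and stands for neither. The gap between the probe sets was 1.17 for Cish and 0.83 for Socs2. Of 604 genes that had several probe sets and a gene mean above the filter, 0.662% and 4.3% had a gap at least as large. Single probe sets of these genes could lie below the filter.

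The numbering of the probe sets separates the members of each pair. Numbers on this array follow the chromosomes and their strands: for 98.6% of 23438 named probe sets at least 50% of the neighbours in the numbering (10 on each side) named a gene of the same chromosome in the RefSeq table, and for 96.3% of 17764 of these at least 50% named a gene of the same strand. Probe set 17244486 of Socs2 stands between those of Cradd and Mrpl42, and 20 of its 20 neighbours lie on chromosome 10, as Socs2 does. The brighter probe set 17274184 stands between those of Gm16497 and Gm5432, where 0 of 20 neighbours lie on chromosome 10 and 19 lie on chromosome 12. Both Cish probe sets stand among genes of chromosome 9, but around 17521300, between Dcaf1 and 6430571L13Rik, all 17 neighbours with a known strand are on the plus strand, that of Cish, while around 17530881, between Mapkapk3 and Hemk1, all 13 are on the minus strand. The sequences of the probes were not used here, and what these displaced probe sets bind was not tested. Using only the probe sets numbered at the gene, a choice made after seeing the values, Socs2 differed by -0.46 and no longer reached 1.5-fold. Cish differed by -0.66 and did reach it by its RMA values. Bcl6 has 1 probe set, numbered at the gene, so this choice could not change its value.

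Bcl6 stood out by its size at its brightness. It had 1 probe set, at 7.18 in Iah1-WT and 8.06 in Iah1-KO, numbered between Rtp2 and Lpp on its own chromosome 16. Of 11090 genes above the filter, 32 had a higher difference, and all of these were dimmer: among the 2786 genes at least as bright as Bcl6, 0 had a higher one. Its difference was 4.38 times the standard deviation of the differences in its group of signal, which was 0.20. Socs2, by its gene mean, had 66 genes below it among all 11090, of which 22 were among the 7978 genes at least as bright. These ranks describe genes picked for their differences.

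**Figure D2:**
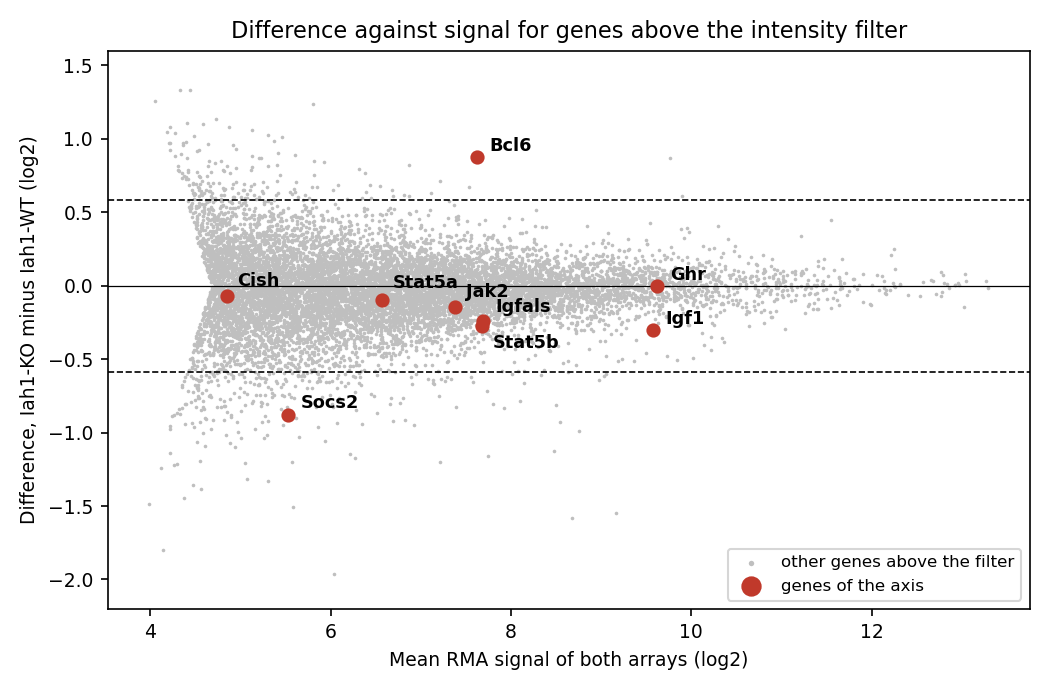
Difference (Iah1-KO minus Iah1-WT, log2, vertical axis) against mean RMA signal of both arrays (log2, horizontal axis) for genes above the intensity filter in grey and the 9 measured genes in red, with dashed lines at 1.5-fold. Bcl6 at 0.88 lies above every grey point of equal or greater signal, Socs2 at -0.88 lies below the lower line, and Iah1 at -4.69 is outside the range drawn.

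STAT5 and BCL6 both recognise the palindrome TTCNNNGAA, which reads the same on both strands, and it was searched in the RefSeq windows of GRCm38.p6 around annotated transcription starts (250 bases before and 50 after). Windows were held for 9 of the 10 genes, Socs2 being the exception, and 4 of the 9 (Bcl6, Cish, Igfals and Prlr) had a match. Genes differ in their number of annotated starts, so shares are given by window: 6 of 17 (35.3%) had one, against 8.3% of 32851 windows. A second annotated start of Bcl6 had 3 matches in its window, and 3 or more were found in 0.0335% of all windows. It is shown because Bcl6 was the 1 measured gene of the 9 that was higher in Iah1-KO, as the 250 bases before that start (chr16:23981284-23981533, minus strand), with the matches in capitals.
Bcl6, second start: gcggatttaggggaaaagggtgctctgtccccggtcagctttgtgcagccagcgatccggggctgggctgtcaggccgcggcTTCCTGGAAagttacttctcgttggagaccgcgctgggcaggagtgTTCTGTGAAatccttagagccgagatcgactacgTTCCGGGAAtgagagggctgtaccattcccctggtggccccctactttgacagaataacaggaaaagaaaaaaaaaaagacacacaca

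The same letters were found in other windows, shown here as 30-base stretches so that a repressor gene and the targets can be set beside each other. Matches are in capitals. They lie at chr16:23988951-23988980 on the minus strand for the first start of Bcl6, at chr9:107296654-107296683 for Cish, and at chr17:24877598-24877627 and chr17:24878163-24878192 for the first and second start of Igfals, these on the plus strand.
Bcl6, first start: agcaaattagTTCTCAGAAttccagaggcc
Cish: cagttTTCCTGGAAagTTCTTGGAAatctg
Igfals, first start: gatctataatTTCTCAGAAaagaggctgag
Igfals, second start: ctgccaggtgTTCCTAGAAgaggccctggg

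In Cish 2 matches stand close together directly at the annotated start, and 0.457% of all windows held 2 or more. The first match of the second Bcl6 start and the first of Cish are the same 9 letters, and the first starts of Bcl6 and Igfals share another. The genes that hold these letters did not differ in one direction: Bcl6 was higher in Iah1-KO, Igfals was lower, and the Cish probe sets were split. Ghr, Jak2, Stat5a, Stat5b and Igf1 had no match in these windows, which says nothing of sites elsewhere. A match is a description of letters, and no binding was measured.

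The rest of the pathway was described from lists chosen with earlier results of these arrays known. For comparison with each list, 55.7% of all genes above the filter lay below 0. At 1.5-fold 2.45% of them were lower and 1.47% were higher. Other JAK, STAT and cytokine receptor genes lay below 0 in 10 of 11 cases above the filter, with a median of -0.23, 1 lower and 0 higher at 1.5-fold. Lepr, the leptin receptor gene, was at 5.29 in Iah1-WT and 4.56 in Iah1-KO, at least 1.53-fold lower against the filter. The leukaemia inhibitory factor receptor gene Lifr differed by -0.50, the interferon gamma receptor gene Ifngr1 by -0.28 and the interleukin 22 receptor gene Il22ra1 by 0.33. Stat3, which carries interleukin 6 signals in liver, differed by -0.04.

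Inhibitors of the pathway other than Socs2 and Cish went both ways, with 6 of 13 below 0, a median of 0.02 and none at 1.5-fold. The tyrosine phosphatase gene Ptpn2, whose product acts on JAK and STAT proteins, differed by -0.57 and Ptpn11 by 0.26. Pias1, an inhibitor of STAT-dependent transcription, differed by -0.26 and Socs5 by 0.27, the last below the filter in Iah1-WT. The mean of the 2 Socs3 probe sets stayed below the filter in both arrays, but they disagreed: probe set 17272619, above the filter in both, differed by 0.23, and probe set 17547600, below it in both, by -0.37.

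Of 15 IGF system genes above the filter 13 lay below 0, with a median of -0.20, 2 lower and 0 higher at 1.5-fold. Igf1r, the receptor for IGF1, was at 5.64 in Iah1-WT and 4.90 in Iah1-KO, a difference of -0.74. Igfbp1, a binding protein gene repressed by insulin, was at 8.20 in Iah1-WT and 7.40 in Iah1-KO, a difference of -0.81. Igfbp5 differed by -0.45 and the adaptor gene Grb10 by -0.33, the last below the filter in Iah1-KO. Igfbp3, whose product joins IGF1 and the acid-labile subunit in serum, was at 7.44 in Iah1-WT and 7.19 in Iah1-KO. Its difference of -0.25 is near the median of this list.

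Among 12 transcription regulators of growth hormone-dependent liver genes 9 lay below 0, with a median of -0.07. Onecut1, which encodes the hepatocyte factor HNF6 and is induced by growth hormone, was at 8.33 in Iah1-WT and 7.17 in Iah1-KO, 2.23-fold lower and the 1 gene of this list at 1.5-fold. Cux2, a repressor normally found in female liver, was at 4.92 in Iah1-WT and 5.24 in Iah1-KO, a difference of 0.32. Foxa1 and Tox differed by -0.22 and -0.18. Hnf4a, at 10.2 in both arrays, differed by -0.07.

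Genes for partners of BCL6 differed less than Bcl6 itself. None of the 7 corepressor and paralog genes above the filter reached 1.5-fold, 5 lay below 0, and their median was -0.03. The paralog Bcl6b differed by -0.29 and lay below the filter in Iah1-KO. Among the corepressor genes Sin3a differed by -0.36, Bcorl1 by 0.31 and Ctbp1 by 0.17.

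Sex-biased liver genes are a well-known readout of growth hormone signalling. Of 20 male-biased genes 16 lay below 0, with a median of -0.23, 1 lower and 0 higher at 1.5-fold. Among all genes above the filter 55.7% lay below 0, 2.45% were lower and 1.47% higher at that size. The lowest were Hsd3b5, a male-specific steroid dehydrogenase gene, at -0.65, C6 at -0.51, Serpina1e at -0.49 and Cyp4a12a at -0.47. The male-biased genes did not move as one: 4 lay above 0, the highest being Cyp2u1 at 0.17. Bright genes of this list were not alike. Mup20 and Ugt2b1 differed by -0.03 and -0.06 and Gstp1 by 0.14, while Elovl3, Slco1a1 and Egfr differed by -0.30, -0.25 and -0.38. Of 25 measured female-biased genes 19 passed the filter. Of these 11 lay below 0, with a median of -0.03, 2 lower and 1 higher at 1.5-fold by their RMA values. Without the filter the median was 0.07 for the female-biased and -0.22 for the male-biased genes, so the sign of the female-biased median depends on the filter. Cyp17a1 differed by 0.63, Vldlr by -0.57, and Cyp3a44 and Cyp2c40, both below the filter in Iah1-KO, were at least 1.04-fold and 1.31-fold lower. The Cyp genes have close relatives whose RNA their probes could share, which makes single values uncertain.

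**Figure D3:**
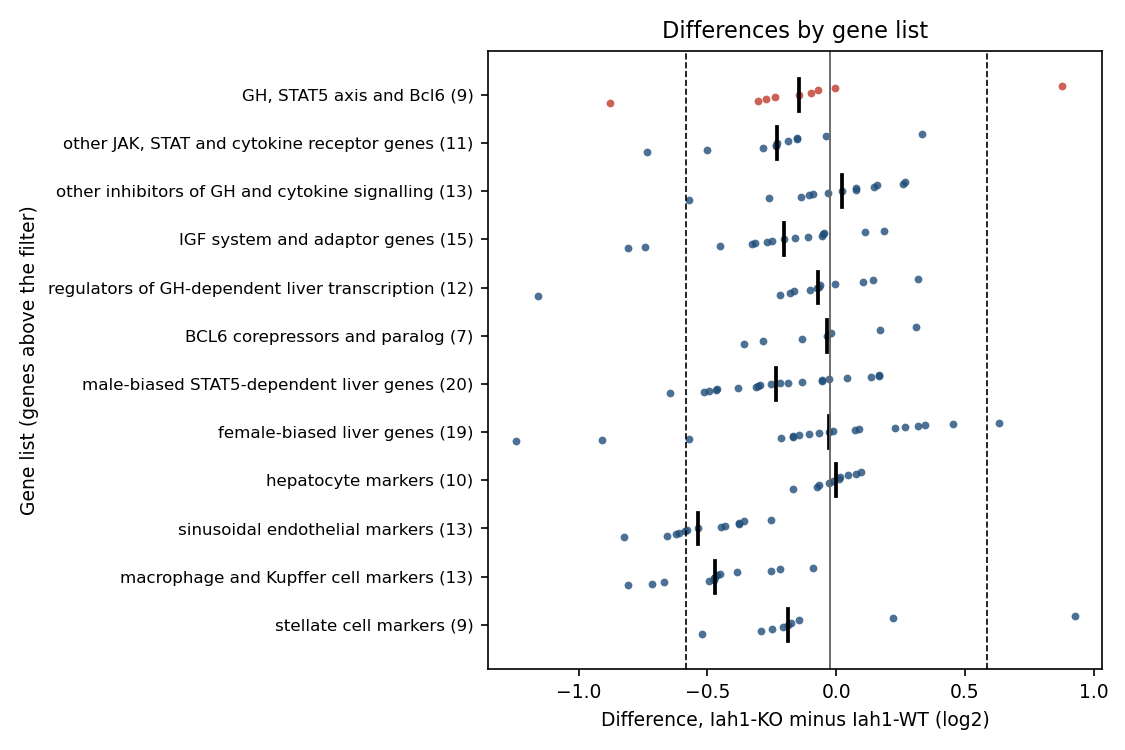
Difference (Iah1-KO minus Iah1-WT, log2, horizontal axis) of each gene above the intensity filter, by gene list, with the number of genes in brackets, a black bar at each list's median, dashed lines at 1.5-fold and a grey line at the median of all genes, -0.02. The growth hormone genes and Bcl6 (red) have a median of -0.15, with Bcl6 alone on the right, while endothelial and macrophage markers lie below 0 throughout.

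Markers of 2 other liver cell types were lower in the same array. Among all genes above the filter 55.7% lay below 0 and 2.45% were lower at 1.5-fold. All 13 sinusoidal endothelial markers lay below 0, 5 were lower at 1.5-fold, and the median was -0.54. Their summed linear signal was 3710 in Iah1-WT and 2614 in Iah1-KO. All 13 macrophage and Kupffer cell markers lay below 0 too, with a median of -0.47, 3 at 1.5-fold and summed signals of 2672 and 1898. Lyve1, the endothelial hyaluronan receptor gene, differed by -0.83 and the complement gene C1qb, made by macrophages, by -0.81. Each was the lowest of its list, and the related C1qa and C1qc differed by only -0.22 and -0.09. These cells also express JAK and STAT genes, cytokine receptors and, in macrophages, Igf1, and the part of the markers in the lower values was not tested. Bcl6 was higher in Iah1-KO, and whether cell content bears on its value was not tested either.

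Hepatocyte markers were at nearly equal levels, which checks the labelled tissue: 5 of 10 lay below 0, the median was -0.00 (-0.0011), and the summed signal was 50422 in Iah1-WT and 50940 in Iah1-KO. Of 9 stellate cell markers above the filter 7 lay below 0, with a median of -0.19, the lowest being -0.52 for Lrat. Des lay below the filter in Iah1-WT and only just passed it in Iah1-KO (4.68), so its higher RMA value there shows no difference by itself. None of 8 measured T, NK and B cell markers passed the filter, and of 5 cholangiocyte markers Sox9 did, at -0.17. In pooled tissue RNA, fewer cells of a type and less RNA per cell cannot be told apart.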

How the data were processed

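Liver RNA of male mice, pooled from 3 animals per genotype, was measured on 2 Affymetrix arrays, 1 each for Iah1-WT and Iah1-KO. The deposited log2 values are 1 per probe set and array; RMA is named, with Affymetrix Expression Console 1.3.0, in the submitters' processing notes. The array's genome build was not given in the sources used here. RMA equalises the arrays' distributions and compresses differences of dim probe sets. Of 41345 probe sets, 23521 with 1 symbol in the platform annotation were used and averaged by gene. With 1 array per genotype no test was made, and the number of arrays limits the precision.

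Members and lists were chosen with earlier results of these data known. Named genes are all members, Iah1, and in each other list all genes at 1.5-fold and up to 4 with the largest differences. For cell markers only examples are named. Stat3, Socs3, Igfbp3 and Hnf4a were added for their roles after their values were seen. Among male-biased genes Cyp2u1 was added as the highest, and Mup20, Ugt2b1, Gstp1, Elovl3, Slco1a1 and Egfr as bright genes, also after their values were seen. Where 1 array lay below the filter, printed bounds take the filter in its place. Starts and sequences are RefSeq's (GRCm38.p6). Alternatives were other filters and fold thresholds, the brightest probe set, quantile normalization again, loess (span 0.4), median subtraction, probe sets with several symbols, and, added later, probe sets by numbering. The counting steps were tested on simulated data. Python 3.11.15, pandas 2.3.3 and statsmodels 0.14.6 were used.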

Additional observations from a re-analysis of the deposited data

How the results depend on the processing

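The count of growth hormone pathway genes at 1.5-fold or more was 2 (Bcl6 higher and Socs2 lower). It became 1 (Bcl6) with the intensity filter at the 75th percentile, 6.52, which leaves 7 genes and drops Socs2 and Cish, and 0 at 2-fold. It was 3 by each gene's brightest probe set, Cish being added, and 2 under the other 7 alternatives, but with only probe sets numbered at the gene these were Bcl6 and Cish. The median difference of the genes ranged from -0.24 to -0.11. Bcl6 stayed between 0.88 and 0.92 and Igf1 between -0.30 and -0.28. Each has 1 probe set, so its value moved only with quantile normalization again, loess and median subtraction. The filter and probe-set settings left both values unchanged and are no check of them. Socs2 moved to -1.29 with its brightest probe set and to -0.46 by numbering, and Cish to -0.66 under both; these 4 were the values that moved by more than the probe-set disagreement. Signs near 0 were less stable: Ghr ranged from -0.01 to 0.02, the median of the inhibitors from -0.11 to 0.05, and that of the female-biased genes from -0.07 to 0.07. No paired analysis was possible because each genotype has 1 array. Depth is not a term of array data; Cish and probe set 17244486 of Socs2 lie near the filter, where signal over background is not known.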
